A study of Mus musculus with 28 samples.

Results

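A set of 10 genes for RNA-binding proteins that shape the neuronal splicing and mRNA stability programme was followed through 28 single mouse brain cells: the Rbfox family (Rbfox1, Rbfox2, Rbfox3), the Elavl or Hu family (Elavl1, Elavl2, Elavl3, Elavl4), Nova1, and the polypyrimidine tract-binding proteins Ptbp1 and Ptbp2. They were chosen by name for their known roles, and 10 of the 10 were found by symbol among the 23453 genes with exonic counts and among the 20422 genes with intronic counts. All 10 passed the minimum of 10 exonic counts summed over the cells, as did 16403 genes in all.

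Background on these proteins is as follows. RBFOX proteins bind GCAUG in introns and promote or block the neighbouring exon, and RBFOX3 is the antigen known as NeuN, a marker of mature neurons. ELAVL1 (HuR) is made by most cells, whereas ELAVL2 (HuB), ELAVL3 (HuC) and ELAVL4 (HuD) are largely neuronal, and all of them bind U-rich stretches that affect splicing and RNA stability. NOVA1 regulates alternative exons of synaptic transcripts. PTBP1 represses neuronal exons in progenitors and non-neuronal cells, and its paralog PTBP2 replaces it when neurons form.

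The sample labels give 12 cortical neurons and 8 cortical astrocytes of genotype C57/BL6 from primary culture, each taken with a pipette, and 8 cortical interneurons of genotype C57/BL6/N from acute slices of the prefrontal cortex, each taken with a patch clamp pipette. The study's methods describe the cultures as mixed from embryos of both sexes. The protocol text of the labels names a 3-month old male mouse for the perfused and fixed brain, and no age is given there for the slice donors. No label says which cells shared an animal or a dish. Cultured and slice cells had different library kits (TruSeq Nano DNA and TruSeq Stranded) and sequencers, so that cell type, source and library cannot be told apart between them.

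The columns of the count tables carry codes (BRP or F and a number) found in no label, and 0 of 28 columns were matched to a sample. The cells are therefore described in 3 blocks of codes and are given no cell type: the 12-cell BRP block (BRP528, BRP529 and BRP534 to BRP543), the 8-cell BRP block (BRP564 and BRP566 to BRP572) and the F block (8 cells). The limits of these blocks were drawn with marker genes of the same data known, so marker levels are a description. The summed level of 9 neuron markers (among them Map2, Tubb3 and Snap25) was 5144 to 10970 CPM (exonic counts scaled to a total of 1000000 per cell) in the 12-cell BRP block, 328 to 1099 CPM in the 8-cell BRP block and 1600 to 17861 CPM in the F block. The summed level of 9 astrocyte markers was 208 to 2463, 2674 to 7155 and 1.19 to 4363 CPM in the same order. Gfap, an astrocyte filament gene, had counts in 6 of 12, 8 of 8 and 3 of 8 cells, with medians of 0.0205, 153 and 0 CPM. Slc1a2, on the same list, went the other way, with medians of 804, 192 and 4.12 CPM. It held most of the astrocyte sum of the 12-cell BRP block (median 988 CPM). The rest of the list had higher medians in the 8-cell than in the 12-cell BRP block. The summed level of 9 interneuron markers (among them Gad1, Gad2 and Sst) had medians of 49.4, 31.5 and 4531 CPM, and BRP528 reached 3124 CPM. In the F block the highest medians of single markers were those of Gad1 (2754 CPM) and Slc32a1 (531 CPM). Sst, Pvalb, Vip and Dlx2 had medians of 0 CPM there. Cycling markers (Mki67, Top2a, Ccnb1, Cdk1) had median sums of 24.6, 246 and 0 CPM. Summed oligodendrocyte markers had medians of 26.7, 910 and 0.842 CPM, and those of microglia, endothelial and mesenchymal cells had medians of at most 23.9 CPM in any block. Single cells stood far above these medians, in each case mainly through 1 gene. F7 was at 3387 CPM for oligodendrocyte markers, of which Olig1 held 3210 CPM. It was at 4363 CPM for astrocyte markers, of which Slc1a2 held 4350 CPM. F16 was at 2093 CPM for microglia markers, where only Csf1r had a count.

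Exonic totals per cell were 17483754 to 26770944 counts in the 12-cell BRP block, 12969692 to 19798892 in the 8-cell BRP block and 838343 to 14831505 in the F block, with 9869 to 12564, 10985 to 12815 and 2338 to 7218 genes detected. A count of 0 allows up to 3 counts, which is 0.112 to 0.172 CPM, 0.152 to 0.231 CPM and 0.202 to 3.58 CPM per cell. These limits and all intervals cover counting error only. F11 and F12 were far more alike than any other pair of F cells: Pearson's r across genes of log2(exonic CPM + 1) was 0.954, against 0.489 for the next pair and a median of 0.276. Their counts still differed by more than sampling noise (chi-square per degree of freedom 17.6 over 1900 genes), so F values are also given with both summed as 1 cell. With single cells, unnamed columns and no named animals, no test between blocks was made. Blocks are compared by the difference of their mean log2(exonic CPM + 1), called higher or lower at 1 or more, and by whether the cells' ranges overlap.

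Over all genes compared, 26.8% were higher and 15.5% lower in the 8-cell BRP block than in the 12-cell BRP block by this rule. Among the 10 genes described here, 1 (Ptbp1) was higher, 6 were lower (Rbfox1, Rbfox2, Rbfox3, Elavl2, Elavl3, Elavl4) and 3 were within 1 (Elavl1, Nova1, Ptbp2). Every cell of the 8-cell BRP block lay below every cell of the 12-cell BRP block for 5 of the 10 (Rbfox1, Rbfox2, Rbfox3, Elavl3, Elavl4), against 2.52% of all genes compared. No gene of the 10 had every cell above, against 3.20% of all genes compared. The median difference of the 10 was −2.87, beside 0.12 for all genes compared.

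**Figure D1:**
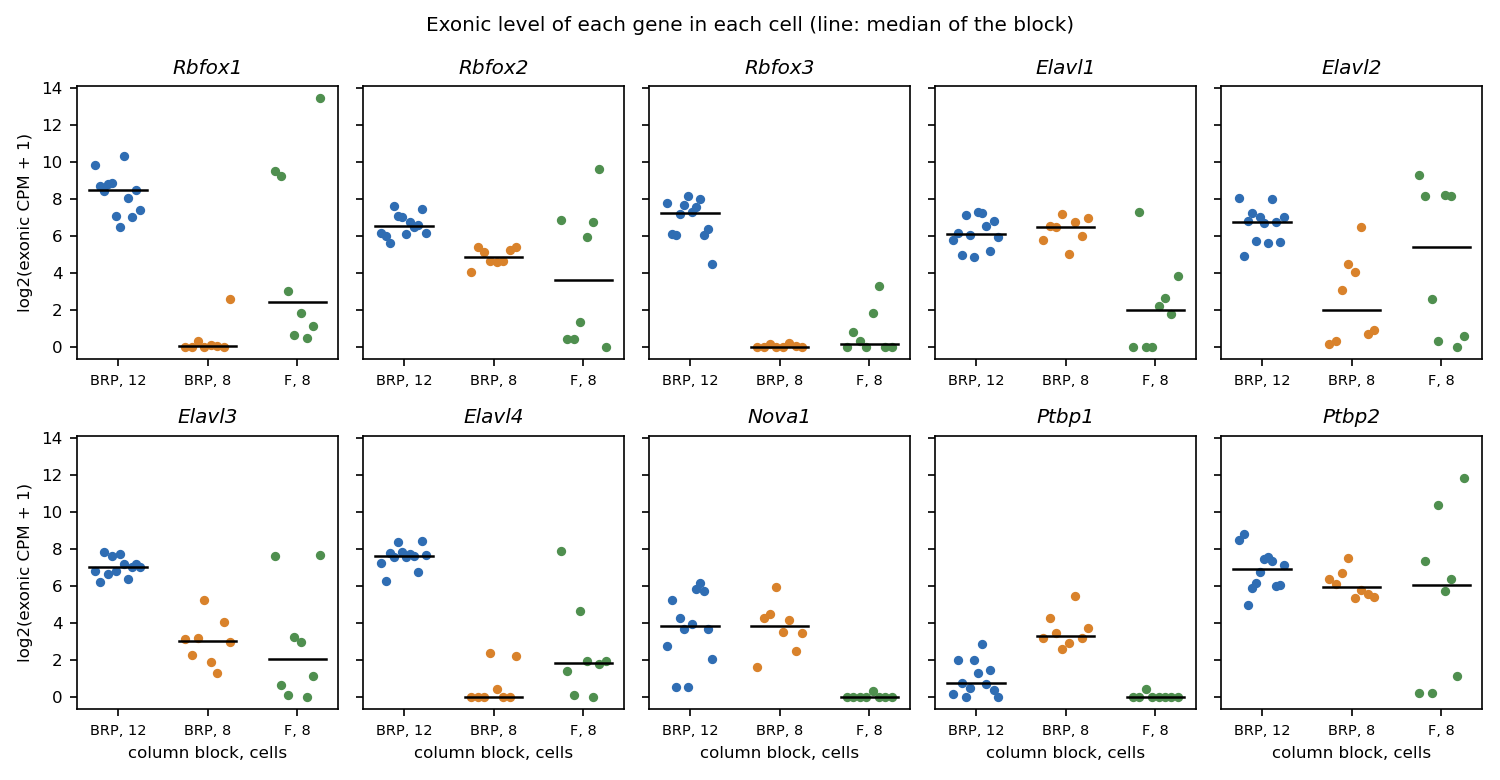
Exonic level of each gene, as log2(exonic CPM + 1), in each of the 28 cells, by block of column codes (12-cell BRP block, 8-cell BRP block, F block), with points spread sideways only for visibility and a line at the block's median. Rbfox3 and Elavl4 are high in all 12 cells of the first block and at or near 0 in most of the second, Ptbp1 shows the opposite order, and F cells spread from 0 to values above both BRP blocks for Rbfox1 and Ptbp2.

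**Figure D2:**
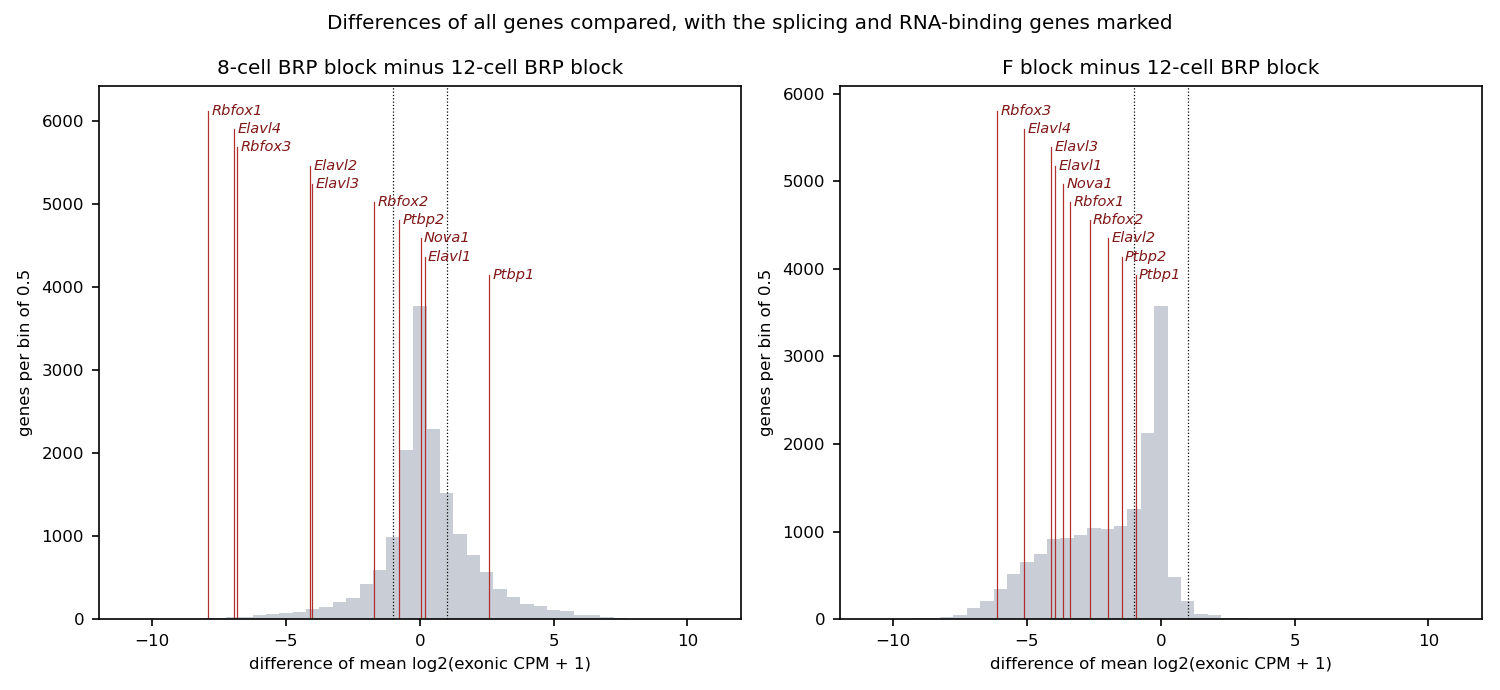
Differences of mean log2(exonic CPM + 1) of all 16403 genes compared (grey bars, genes per bin of 0.5) for the 8-cell BRP block minus the 12-cell BRP block (left) and the F block minus the 12-cell BRP block (right). Red lines mark the 10 genes and dotted lines the limits of −1 and 1: on the left the genes run from −7.90 (Rbfox1) to 2.59 (Ptbp1), and on the right from −6.11 (Rbfox3) to −0.94 (Ptbp1), where 56.0% of all genes are lower.

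Ptbp1 and Ptbp2 encode the pair whose exchange marks neuronal differentiation. Ptbp1 lies at chr10:79854427-79864771 on the plus strand and Ptbp2 at chr3:119718742-119784466 on the minus strand (mouse GRCm38, the assembly that mm10 names, with GENCODE M21 models). PTBP1 is known to cause skipping of a short cassette exon in its own transcript and in that of Ptbp2, which shifts the reading frame and exposes the transcript to nonsense-mediated decay (NMD). Those exons are shown because they connect the genes. In GENCODE M21 each has 34 bases, which is not a multiple of 3, and each is skipped by transcripts annotated for NMD (2 of 3 for Ptbp1, 2 of 2 for Ptbp2) and by no annotated coding transcript (0 of 6 and 0 of 5). They are exon 10 of Ptbp1-216, at chr10:79862014-79862047 on the plus strand, and exon 10 of Ptbp2-201, at chr3:119724612-119724645 on the minus strand. The exon is in capitals and 15 bases of the neighbouring exons of the transcript are in lower case on each side:
Ptbp1: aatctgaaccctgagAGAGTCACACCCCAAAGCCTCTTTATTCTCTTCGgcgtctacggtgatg
Ptbp2: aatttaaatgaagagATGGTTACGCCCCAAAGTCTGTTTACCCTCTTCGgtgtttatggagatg
The exons share 26 of 34 bases (76.5%). Counts per gene do not separate transcripts with and without them, so their inclusion was not measured.

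Ptbp1 was the gene of the 10 that was higher in the 8-cell BRP block. Its exonic level there was 5.03 CPM at the lowest, 8.85 CPM at the median and 42.8 CPM at the highest (BRP570), from 83 to 847 counts per cell. In the 12-cell BRP block it was 0 to 6.14 CPM with a median of 0.647 CPM, and 2 cells (BRP535 and BRP543) had no count. The ranges touched only through BRP568 (5.03 CPM) and BRP539 (6.14 CPM), and 7 of 8 cells lay above all 12. The difference was 2.59 on the log2 scale and the ratio of the mean CPM was 9.60. In the F block Ptbp1 had 4 exonic counts, all in F6. In 4 of the 7 other F cells a count of 0 allows a level above the 12-cell median (0.683 CPM in F11, 1.11 CPM in F12, 1.42 CPM in F24 and 3.58 CPM in F16), so a lower level was not detectable there.

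Ptbp2 was present in every BRP cell. It ranged from 29.7 to 434 CPM with a median of 120 CPM in the 12-cell BRP block, where BRP529 (434 CPM) and BRP528 (349 CPM) were highest. In both cells all 9 astrocyte markers had counts, with sums of 2152 and 1786 CPM. BRP538 (2463 CPM) and BRP540 (2145 CPM) had sums of like size with Ptbp2 at 171 and 163 CPM. Slc1a2 alone held 2459 CPM of the sum in BRP538, so the sums differ in content. A link of Ptbp2 to astrocyte RNA was not tested. Ptbp2 ranged from 39.4 to 178 CPM with a median of 59.5 CPM in the 8-cell BRP block, and the ranges overlapped (difference −0.78). The sign of this difference turned to 0.04 with DESeq2 size factors, so it gives no direction. Among F cells Ptbp2 was either very low or high. It was at 0.135 CPM in F1, 0.166 CPM in F6 and 1.19 CPM in F16, against 52.2 to 162 CPM in F2, F11 and F12. It reached 1304 CPM in F7 (the cell with high Olig1 and Slc1a2) and 3626 CPM in F24.

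The share of Ptbp2 in the exonic counts of the pair sets the genes against each other within each cell. It is a ratio of RNA counts, and no exchange over time and no protein was measured. It was 96.8 to 100% (median 99.4%) in the 12-cell BRP block and 55.3 to 97.3% (median 85.5%) in the 8-cell BRP block. The lowest share, in BRP570, was 1046 of 1893 counts (exact 95% binomial interval 53.0 to 57.5%). Ptbp2 thus held most of the counts of the pair in every cell of both BRP blocks. Counted per kb of exon (4.74 kb for Ptbp1, 9.18 kb for Ptbp2) the median shares were 98.8% and 75.4%, and the lowest was 38.9%, below an even split, in the 8-cell BRP block. The 5 F cells with at least 10 counts of the pair were all at 100%.

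The Rbfox family held the largest difference between the BRP blocks, and its leading member was not the same in them. Rbfox1 (chr16:5885355-7411526, plus strand) encodes the main RBFOX protein of neurons and muscle. Its exonic level was 89.0 to 1251 CPM (median 349 CPM) in the 12-cell BRP block. In the 8-cell BRP block 4 of 8 cells had any exonic count, the highest level was 5.00 CPM (BRP572, 92 of the block's 98 counts), and the difference was −7.90. Rbfox3 (chr11:118489762-118911597, minus strand), the NeuN gene, was at 21.4 to 288 CPM (median 150 CPM) against 0 to 0.152 CPM, with 6 exonic counts in all 8 cells (difference −6.83). Rbfox2 (chr15:77078990-77307004, minus strand), the family member that many other tissues also make, was at 47.3 to 195 CPM (median 90.6 CPM) against 15.5 to 41.8 CPM (median 28.8 CPM). The ranges of all 3 genes were apart. For Rbfox2 the difference (−1.70) was the smallest of the 6 lower genes, and with DESeq2 size factors it was −0.88 and the ranges overlapped. The ranges of Rbfox2 also overlapped after thinning each cell to 800000 exonic counts (difference −1.78).

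By exonic counts Rbfox1 led the family in 10 of 12 cells of the 12-cell BRP block and Rbfox3 in the other two (BRP537 and BRP538), with the same numbers per kb of exon. Rbfox2 led in 8 of 8 cells of the 8-cell BRP block, with 89.3 to 100% of the family's counts (median 99.8%). The share of Rbfox3 ran from 8.31% (BRP543) to 52.4% (BRP537; exact 95% interval 51.6 to 53.2%) within the 12-cell BRP block, with a median of 18.3%, which became 9.34% when intronic counts were added. It was 0 to 0.640% in the 8-cell BRP block, where a count of 0 of 250 in BRP564 allows up to 1.46% (upper end of the exact 95% interval). Among F cells the lead was split, with Rbfox1 ahead in 4 cells and Rbfox2 in 4, and no cell led by Rbfox3.

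**Figure D3:**
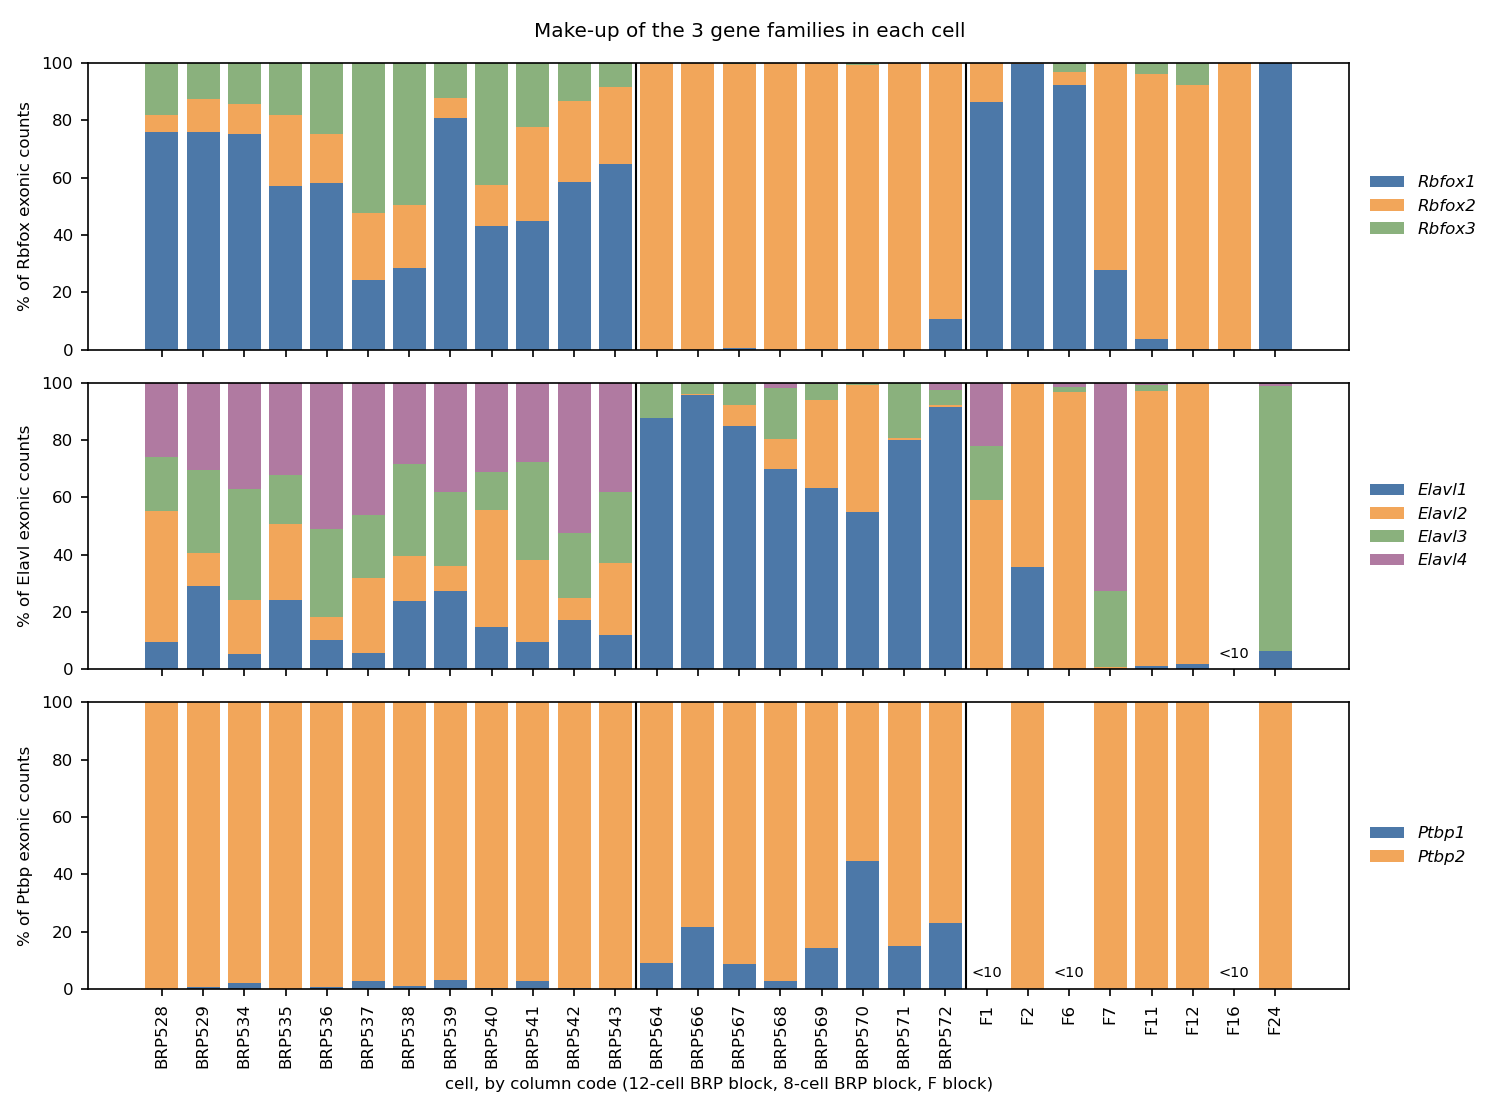
Make-up of each family in each cell, as the percent of the family's exonic counts held by each member, in the order 12-cell BRP block, 8-cell BRP block and F block (separated by lines). Cells with fewer than 10 counts of a family are marked <10. Rbfox2 and Elavl1 fill most of the bars of the 8-cell BRP block, where Ptbp1 also takes up to 44.7% of the pair in BRP570.

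Within the Elavl family the broadly made member and the neuronal members parted. Elavl1 (chr8:4285382-4325413, minus strand) was at 28.02 to 154 CPM (median 68.2 CPM) in the 12-cell BRP block and at 31.4 to 145 CPM (median 89.1 CPM) in the 8-cell BRP block, and the ranges overlapped (difference 0.17). Elavl4 (chr4:110203722-110351909, minus strand), which encodes HuD, was at 74.5 to 334 CPM (median 195 CPM) in the first and at 0 to 4.06 CPM in the second, with counts in 3 of 8 cells (difference −6.93). Elavl3 (chr9:22015005-22052023, minus strand), which encodes HuC, was at 71.3 to 225 CPM (median 128 CPM) against 1.46 to 37.1 CPM (median 7.18 CPM; difference −4.03), and had counts in 8 of 8 cells of the lower block. Elavl2 (chr4:91250763-91400785, minus strand), which encodes HuB, was at 28.6 to 265 CPM (median 108 CPM) against 0.124 to 86.4 CPM (median 4.08 CPM; difference −4.11). The ranges of Elavl2 overlapped through 1 cell, BRP570, which had 1710 of the 2415 counts of its block, and the other 7 lay below all 12.

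BRP570 was also the cell of its block with the highest Ptbp1 level and the lowest shares of Ptbp2 and Elavl1. Those shares are not separate traits, since high Ptbp1 and Elavl2 counts lower them. Its Elavl1 level (106 CPM) was above the median of its block (89.1 CPM). The share of Elavl1 in the family was 5.21 to 29.0% (median 13.2%) in the 12-cell BRP block and 54.7 to 95.8% (median 82.4%) in the 8-cell BRP block, with no overlap. Elavl4 led the family in 7 of 12 cells of the former by counts, Elavl3 in 3 and Elavl2 in 2. Per kb of exon Elavl4 led in 11 and Elavl2 in 1, with 6.89 kb of exon for Elavl3 and 5.39 kb for Elavl4. Elavl2 led in 5 of the 7 F cells with at least 10 counts, Elavl3 in F24 and Elavl4 in F7.

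Nova1 (chr12:46694517-46818929, minus strand) did not separate the BRP blocks. Its exonic level was 0.411 to 70.2 CPM (median 13.0 CPM) in the 12-cell BRP block and 1.99 to 59.7 CPM (median 13.6 CPM) in the 8-cell BRP block (difference 0.03). Its spread among the cells of the 12-cell BRP block was the widest of the 10 genes there (SD over cells 1.94 on the log2 scale, against 0.52 to 1.14 for the others). A single exonic count was found among F cells, in F11.

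The F block was lower than the 12-cell BRP block for most genes, so its low values are read against that. By the rule above 56.0% of all genes compared were lower and 1.38% higher, with a median difference of −1.43. Of the 10 genes 9 were lower, 0 were higher and Ptbp1 was within 1 (−0.94), with a median of −3.51. Every F cell lay below every cell of the 12-cell BRP block for Rbfox3 and Nova1, against 8.62% of all genes compared. For Rbfox3 the lowest of the 12 cells (21.4 CPM) lay above what an exonic count of 0 allows in any F cell. This holds for exonic counts only. The F block had 541 intronic counts of Rbfox3 beside 42 exonic ones. In F24 there were 479 intronic and 0 exonic counts, so Rbfox3 RNA is not shown to be absent there. For Nova1 the lowest were 0.411 and 0.428 CPM (11 and 9 counts), and a count of 0 allows 0.542 CPM in F2, 1.11 CPM in F12, 1.42 CPM in F24 and 3.58 CPM in F16, so a separation of Nova1 in those cells was not detectable at this depth. After thinning each cell to 800000 exonic counts only Rbfox3 of the 10 stayed separated. For no gene did every F cell lie above, against 0% of all genes compared. The separation of both genes was lost with TMM or DESeq2 size factors (0 genes). Summing F11 and F12 as 1 cell left 9 lower and the same 2 separated.

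Mean log2 levels hide how F cells behaved, since most genes were near 0 in some F cells and very high in others. Rbfox1 was at 10989 CPM in F24, 726 CPM in F1 and 600 CPM in F2, and at 0.369 to 6.97 CPM in the other five. Rbfox2 reached 780 CPM in F16 (the cell with high Csf1r, from 654 counts), 114 CPM in F1, 106 CPM in F12 and 60.8 CPM in F11. It was at 0 to 1.496 CPM in F2, F6, F7 and F24. Elavl2 was at 281 to 616 CPM in 4 cells (F1, F2, F11, F12), each above the highest cell of the 12-cell BRP block (265 CPM), and at 0 to 5.06 CPM in the other four. Elavl1 had counts in 5 of 8 F cells, with 866 of 926 counts in F2. Elavl3 reached 196 CPM in F1 and 197 CPM in F24, and was at 0 to 8.51 CPM in the other six. Elavl4 reached 232 CPM in F1 and 23.5 CPM in F7 and was at 0 to 2.84 CPM elsewhere. Rbfox3 had 42 exonic counts in all F cells, of which 24 were in F12 and 11 in F11. With these very high single cells, the mean CPM of the F block was above that of the 12-cell BRP block for Rbfox1 (ratio 3.73), Rbfox2 (1.29), Elavl2 (1.56) and Ptbp2 (4.30), while the difference of their mean logs was negative. With each cell thinned to 800000 exonic counts, 9 genes were again lower in the F block and 55.3% of all genes compared were lower. The part of the lower number of detected genes was not tested.

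The median levels per kb of exon order the genes within a block, on the scale of exonic CPM per kb. In the 12-cell BRP block the order was Rbfox1 (79.2), Elavl4 (36.3), Rbfox3 (25.8), Elavl3 (18.6), Ptbp2 (13.1), Elavl2 (13.0), Rbfox2 (11.1), Elavl1 (6.58), Nova1 (1.49) and Ptbp1 (0.137). In the 8-cell BRP block Elavl1 (8.60) came first, followed by Ptbp2 (6.49), Rbfox2 (3.54), Ptbp1 (1.87), Nova1 (1.56), Elavl3 (1.04) and Elavl2 (0.490), with Rbfox1 at 0.00574 and Rbfox3 and Elavl4 at 0. In both orders the ranges of all neighbours overlapped, so the ranges over cells separate no neighbouring pair. Neighbours were not compared within single cells. Counts that favour one end of a transcript would change values per kb, and the files do not give read positions.

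Intronic counts gave a different picture for Rbfox1, whose introns span 1522 kb. Over all cells it had 538659 intronic and 145397 exonic counts, and its intronic total was at percentile 99.9 of all genes. Per kb of intron the total was 354 counts for Rbfox1, close to 319 for Elavl1 and 297 for Elavl3, and lower for Ptbp2 (156), Elavl2 (147), Rbfox2 (136), Nova1 (118), Elavl4 (52.2) and Rbfox3 (26.3). In the 8-cell BRP block Rbfox1 had 4738 intronic counts beside 98 exonic ones, from 11 in BRP564 to 2141 in BRP572, and in 7 of 8 cells at least 10 intronic counts stood beside fewer than 10 exonic ones. In the F block the median intronic level of Rbfox1 was 2347 intronic CPM (scaled to the cell's intronic total), beside 2171 intronic CPM in the 12-cell BRP block, while the median exonic levels were 4.74 and 349 CPM. F11 and F12 had 91551 and 59437 intronic but 11 and 1 exonic counts. When both kinds were summed, the difference of Rbfox1 between the F block and the 12-cell BRP block turned from −3.38 to 1.05, and that of Elavl2 from −1.97 to 0.17, so neither has a direction that holds for both kinds of count.

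Other members showed more intronic than exonic counts in single cells. The median intronic share of a gene's counts in the 12-cell BRP block was 57.5% for Rbfox1, 30.0% for Rbfox2, 29.2% for Nova1, 20.1% for Elavl3, 12.2% for Rbfox3 and 9.44% for Elavl1, and at most 3.16% for Elavl4, Ptbp2, Elavl2 and Ptbp1. Leaving out 1 cell moved the Elavl1 value to 3.10% or 15.8%. Pooled over the cells of that block the shares were 48.1% for Rbfox2, 48.2% for Nova1, 20.4% for Rbfox3, 21.5% for Elavl1 and 14.8% for Ptbp2. In the 8-cell BRP block it was 99.9% for Rbfox1 and, over the 5 cells with at least 10 counts, 99.5% for Rbfox3. The 5 such cells of Elavl4 fell apart: 3 were at 99.8% to 100% (BRP566, BRP569, BRP571), whereas BRP568 was at 1.47% and BRP572 at 2.94%. Their median of 99.8% fell to as low as 51.4% without 1 of the first 3 cells. The median share of Ptbp2 was 3.06%, 8.70% and 0.435% in the 3 blocks, but single cells reached 42.8% (BRP542), 26.6% (BRP566) and 44.7% (F2). When 1 cell was left out, its median ran from 5.00 to 12.4% in the 8-cell BRP block and from 0.367 to 1.56% in the F block. Rbfox3 had 571 intronic counts beside 6 exonic ones in the 8-cell BRP block, 410 of them in BRP567. Elavl4 had 2251 beside 137 there, of which 2029 were in BRP569, a cell with 4 exonic counts. Nova1 had 7870 beside 1 among F cells, of which 7801 were in F7. A link to the high Olig1 and Slc1a2 of that cell was not tested. With intronic counts added, the ranges of the 8-cell and 12-cell BRP blocks were apart for 3 genes (Rbfox1, Rbfox3, Elavl3) rather than 5. In the 12-cell BRP block intronic counts exceeded exonic ones in 7 of 12 cells for Rbfox1, in 3 for Rbfox2, in 2 for Nova1, in 1 each for Elavl1 and Ptbp1 and in 0 for the other five. The intronic share of all genes together was 18.6% in that block, 9.13% in the 8-cell BRP block and 41.1% in the F block. Introns of Rbfox1, Rbfox2, Rbfox3, Elavl2, Nova1, Ptbp1 and Ptbp2 hold other annotated genes, small or noncoding, whose reads may be counted there. The protein-coding gene Gm49318 reaches into Elavl3 on the same strand with 256 shared exonic bases, and its reads may be counted there too.

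**Figure D4:**
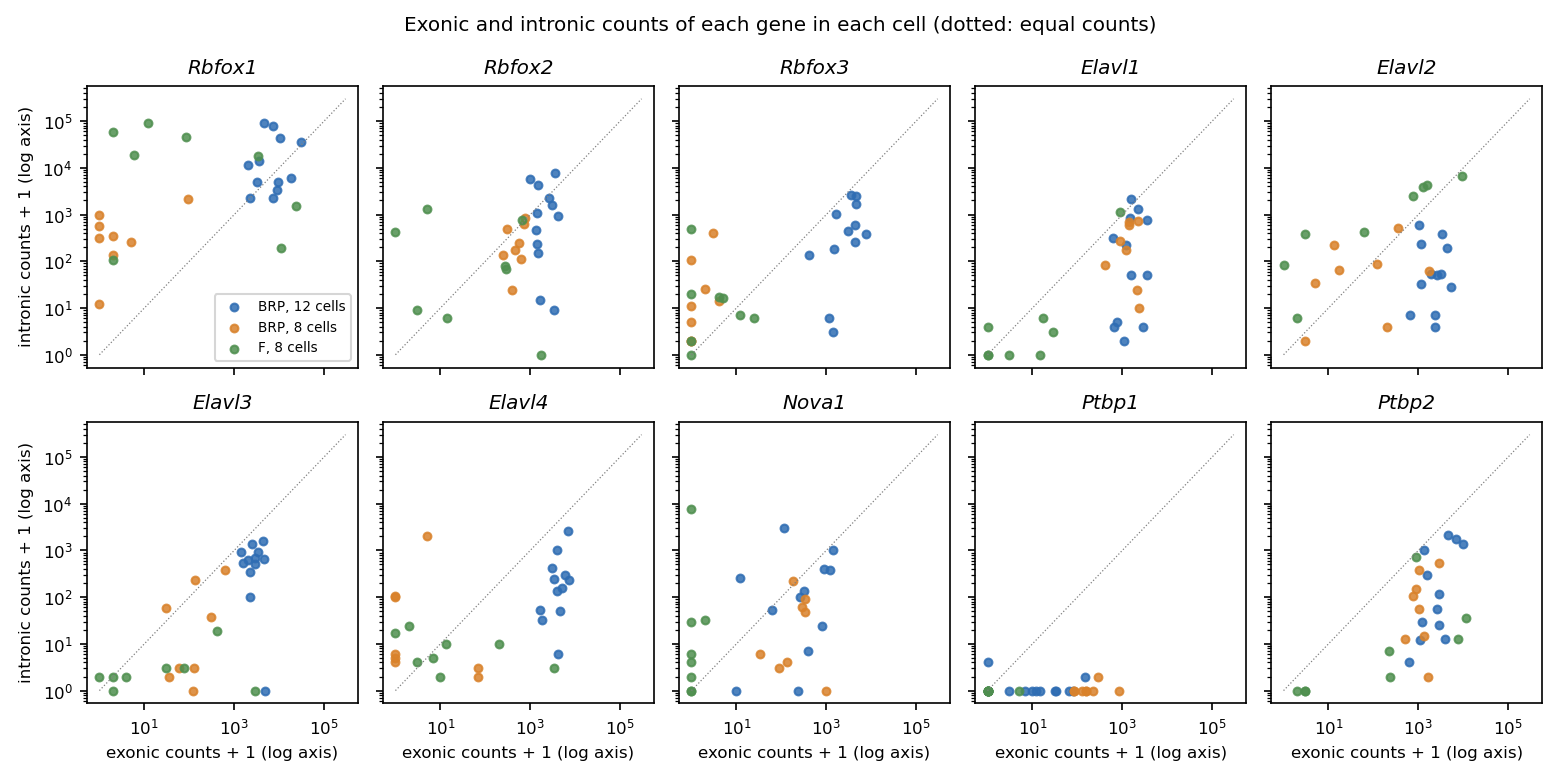
Exonic counts (horizontal) and intronic counts (vertical) of each gene in each cell, both plus 1 on log axes, coloured by block, with a dotted line at equal counts. Rbfox1 lies above the line in all 8 cells of the 8-cell BRP block, single cells stand high at the left edge for Elavl4 (BRP569) and Nova1 (F7), and Ptbp1 stays at the bottom with 5 intronic counts in all.

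Ptbp1 was the opposite case, with 5 intronic counts beside 2367 exonic ones over the 28 cells and 5.61 kb of intron. Of 618 genes within 2-fold of it in both exonic counts and intron length, 134 (21.7%) had 5 or fewer intronic counts, and their median was 63.5. Intronic counts therefore gave no second view of Ptbp1. An 890-base stretch of its transcript is 97.0% identical to Gm4900, and Plppr3, Gm17134 and E130317F20Rik overlap its exons on the opposite strand. Reads from these copies and overlaps may be split or shared, since the strand setting of the counting is not given in the sources used here. The same holds for Elavl1, which shares 204 exonic bases with Ccl25 on the opposite strand, and, on the same strand, for Elavl3 with Gm49318 (256 bases) and Nova1 with Gm33869 (310 bases).

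Other regulators of splicing and RNA stability, listed by known role, were read by the same rule, beside 26.8% of all genes compared that were higher and 15.5% that were lower. Of 11 splicing regulators enriched in neurons, 7 were lower in the 8-cell BRP block than in the 12-cell BRP block, 0 were higher and 4 were within 1 (median −2.44). The largest differences were those of Srrm3 (−4.88), a relative of the microexon regulator Srrm4, and Celf3 (−4.77). Srrm4 itself was at 0.224 to 61.3 CPM against 0 to 4.72 CPM (difference −2.44), and Nova2, the paralog of Nova1, at 2.59 to 95.2 CPM against 5.35 to 23.6 CPM (difference −1.22). Of 7 regulators enriched in glia or progenitors, 4 were higher, 0 lower and 3 within 1 (median 1.13). Qk, which encodes Quaking and acts in glial RNA processing, was at 787 to 1924 CPM against 1.13 to 700 CPM (difference 4.26), and Msi2 (Musashi 2) at 61.7 to 287 CPM against 1.88 to 56.9 CPM (difference 3.38). Both had ranges that were apart. The others that were higher were Ptbp3 (1.45) and Igf2bp1 (1.13), and Msi1 was listed at or near 0 in all blocks (33 exonic counts in all). Of 20 regulators that most cells make, 3 were higher, 0 lower and 17 within 1. Their median difference was 0.67, beside 0.12 for all genes compared. Whether these 20 differ from all genes was not tested. Dlg4, which encodes PSD-95 and whose transcript PTBP proteins are known to repress, was at 7.12 to 140 CPM against 3.10 to 14.9 CPM (difference −3.54).

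Between the F block and the 12-cell BRP block, 9 of the 11 neuron-enriched regulators were lower and 1 was higher, 3 of the 7 glial or progenitor regulators were lower, and 19 of the 20 broadly made regulators were lower, beside 56.0% of all genes compared that were lower and 1.38% that were higher. Their medians were −2.47, −0.55 and −4.12, beside −1.43 for all genes compared. The largest drops were those of Tra2b (−6.43) and Celf1 (−6.19). The exception was Khdrbs2, which encodes SLM1, at 0 CPM at the median and up to 535 CPM in the F block and up to 56.3 CPM in the 12-cell BRP block (difference 1.30). The next largest difference, that of Msi1, was 0.01. Nova2 (−3.91), Srrm4 (−2.27) and Dlg4 (−3.69) were lower, and Qk was within 1 (−0.28).

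Among cells of a block the 10 genes did not follow each other closely. Over the 45 pairs of genes, Spearman's rho of exonic CPM in the 12-cell BRP block ran from −0.56 (Elavl2 with Ptbp1) to 0.59 (Elavl1 with Nova1), with a median of 0.04 over 12 cells. It ran from −0.57 to 0.57 over the 8 cells of the 8-cell BRP block. For F cells it ran from −0.72 (Rbfox3 with Elavl3) to 0.93 (Elavl3 with Elavl4), with a median of −0.01 over 8 cells of which F11 and F12 are alike. Points of a pair share library and depth, and these values are descriptions.

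Over all 28 cells, among 8542 genes with at least 10 exonic counts in 14 or more cells, the pattern most like that of Ptbp1 was that of Tom1l1 (Spearman's rho 0.91), followed by Myl9 (0.91) and Krcc1 (0.91). Within the 12-cell BRP block alone their values were 0.63, 0.48 and 0.63. For Rbfox3 the nearest were Atp2b2 (0.87), Brsk2 (0.85) and Hpca (0.85), and for Rbfox1 they were Tspan7 (0.86), Csrnp3 (0.85) and Slc24a2 (0.82). Elavl4 was nearest to Stx1a (0.84), Kcnh3 (0.83) and Nefl (0.83), Elavl3 to Hprt (0.86), BC018242 (0.86) and Trim2 (0.82), and Elavl2 to Fgf12 (0.85), Trim37 (0.82) and Map9 (0.80). Rbfox2 was nearest to Atp2b1 (0.83), Homer1 (0.78) and 2310035C23Rik (0.77), Elavl1 to Dolpp1 (0.84), Slc16a6 (0.83) and 2310022A10Rik (0.80), and Nova1 to Vps52 (0.86), BC023829 (0.85) and Tysnd1 (0.84). Ptbp2 had the weakest likeness, with Adam22 (0.71), Acsl4 (0.69) and A830010M20Rik (0.67). Within the 12-cell BRP block alone the same pairs ran from −0.08 (Elavl2 with Trim37) to 0.86 (Nova1 with BC023829).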

How the data were processed

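RNA of 28 single mouse cells was measured. The authors deposited raw read counts per gene and cell, in an exonic and an intronic table, without normalization. The submitters' processing notes name bcl2fastq 2.17, STAR 2.4.0 and mm10. The counting tool, annotation, filters and strand setting are not given in the sources used here. No column could be matched to a sample, so blocks of column codes were described and no test was made. The 10 genes, the lists and the block limits were chosen with earlier results of these data known.

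Counts were scaled to CPM per table and cell, and log2(CPM + 1) was averaged over the cells of a block. The pseudocount understates differences of low genes. Genes with at least 10 exonic counts over all cells were compared, with a limit of 1 on the difference. Shares needed at least 10 counts in the cell. Gene and exon lengths, overlaps and the exon sequences came from GENCODE M21 (GRCm38) and its transcripts. Transcript copies were searched with BLAST (at least 90% identity over 100 bases). The genes named beside the 10 are Nova2, Srrm4, Qk, Msi1, the 2 regulators with the largest difference in each direction and comparison, and the 3 most like each gene. Ptbp3, Igf2bp1, Lin28b, Hnrnpa1, Dlg4 and Celf4 were added after their values were seen. Alternatives used TMM factors (edgeR 4.0.16) and DESeq2 1.42.0 size factors under R 4.3.3. Python 3.11.15 with pandas 2.3.3 was used, and the scripts were tested on simulated counts.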

Additional observations from a re-analysis of the deposited data

Results flagged for a closer look

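In the 2 blocks of 8 cells, 24 sets of values (the log2 exonic levels of the 10 genes and the family shares, where all 8 cells had one and they were not all equal) were searched for a cell far from the rest, and 3 were found. Chance alone would give about 1 in 20, except in sets where all cells but 1 are at 0, since any count is then flagged. Rbfox1 in BRP572 was at 2.58 on the log2(exonic CPM + 1) scale, against 0.32 for the next highest cell of the 8-cell BRP block. In the F block Nova1 was at 0.30 in F11 and Ptbp1 at 0.41 in F6, where all the other F cells were at 0. These last 2 sets are of that kind, and their values rest on 1 and 4 counts.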

How the results depend on the processing

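The numbers of genes higher and lower in the 8-cell than in the 12-cell BRP block (1 and 6) were 1 and 5 to 7 under every alternative run, and 1 and 6 when any cell was left out. DESeq2 size factors, set on 226 genes, moved the median difference of all genes from 0.12 to 0.50 and the higher share of all calls from 63.4% to 79.1%, put all Ptbp1 levels above (1 gene rather than 0) and left 4 genes below. Thinning each cell to 800000 exonic counts also left 4 genes below rather than 5. For the F block, 6 to 10 genes were lower under the alternatives and 8 to 10 when a cell was left out. The 2 genes below every cell of the 12-cell BRP block became 0 with TMM factors, 0 with DESeq2 size factors, 0 with exonic plus intronic counts and 1 after thinning to 800000 counts per cell. Adding intronic counts gave 1 gene higher in the F block (Rbfox1), left 3 genes apart between the BRP blocks, and raised the Rbfox3 share in the 8-cell BRP block from 0% to 0.901%. The median intronic shares of Rbfox1 in the 8-cell BRP block, Elavl1 in the F block and Ptbp1 in the 12-cell BRP block became 98.0%, 54.7% and 0.995% when pooled over cells. The causes were not tested. The other family and intronic shares moved by less than their SD over cells, which is wide: pooling moved 15 of 29 intronic shares by over 1.5 times. Among them were Ptbp2 in the 12-cell BRP block (3.06 to 14.8%) and F block (0.435 to 3.68%), Elavl1 in the 12-cell BRP block (9.44 to 21.5%), Elavl3 and Elavl2 in the 8-cell BRP block (7.03 to 33.1% and 59.8 to 29.3%) and Elavl4 in the F block (40 to 1.79%). Leaving out BRP528 and BRP529, or summing F11 and F12, both chosen after seeing the data, changed none of these counts, nor did leaving out 1 cell at a time move any share by an SD, although 9 of 38 shares moved by over 1.5 times. Without BRP528 and BRP529 the intronic shares of Rbfox3 and Elavl1 in the 12-cell BRP block were 18.5% and 16.6%. No paired analysis was possible because the columns carry no replicate number and no test was made. Depth limits what a count of 0 allows, up to 3.58 CPM in F16.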

Other observations

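Hnrnpa1, an abundant splicing factor of most cells, was listed with 1 exonic and 0 intronic counts over all 28 cells, whereas the related Hnrnpa2b1 had medians of 427, 840 and 539 CPM in the 12-cell BRP, 8-cell BRP and F blocks. A gene listed at 0 in these tables is therefore not shown to lack RNA. Lin28b had 2 exonic and 3518 intronic counts, and Msi1 33 exonic and 2022 intronic counts.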
